A study of Mus musculus with 6 samples.

Results

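The histone deacetylase genes described here are *Hdac1* to *Hdac8*, *Hdac10* and *Hdac11*, found by their symbols in the 6 expression files. They are 10 of the 23183 genes listed. The libraries came from double positive (DP) thymocytes, immature thymic T cells positive for CD4 and for CD8, sorted from C57BL/6 mice at 6 weeks of age. There were 3 libraries from *Nsrp1* f/f mice (WT) and 3 from *Nsrp1* f/f CD4Cre mice (NSrp70-cKO), and the study compared them to learn which transcripts depend on the splicing factor NSrp70. Both groups carried the floxed *Nsrp1* allele, so the groups differed by the CD4Cre transgene, whose promoter becomes active as thymocytes reach the DP stage. The labels give no Cre for the WT mice, and an effect of Cre itself cannot be told apart from the loss of *Nsrp1*. Nothing in the labels or methods says that the libraries of a group came from separate mice, so p-values measure only the spread between these samples, which may be technical.

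Histone deacetylases remove acetyl groups from lysines of histones and other proteins, and most of them work as the catalytic part of larger repressor complexes. Class I enzymes (HDAC1, HDAC2, HDAC3 and HDAC8) are the main nuclear deacetylases, whereas class IIa enzymes (HDAC4, HDAC5 and HDAC7) have weak deacetylase activity of their own, bind MEF2 transcription factors and leave the nucleus when kinases phosphorylate them. HDAC7 is known in thymocytes as a repressor of genes that T cell receptor signals induce, and HDAC1, HDAC2 and HDAC3 all act in T cell development.

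The split between the classes can be read in the coding sequence around the active site. The stretches of 27 bases below are shown because *Hdac1* and *Hdac2* rose in the cKO libraries and the class IIa genes fell. The direction did not follow the class, since *Hdac8*, also shown, and *Hdac3*, not shown, are class I genes that fell. Capitals mark the codon of the catalytic tyrosine in class I and the codon of the histidine that replaces it in class IIa.
Hdac1: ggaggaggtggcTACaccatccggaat
Hdac2: ggtggaggaggcTACacaatccggaat
Hdac8: ggaggaggaggcTATaaccttgccaac
Hdac4: cttgagggaggcCATgacctgacagcc
Hdac5: ctggagggaggcCATgacttgaccgcc
Hdac7: ttagagggtggaCATgacctcacggcc

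These stretches are from GENCODE release M21 on GRCm38, the assembly of mm10. In *Hdac1* the stretch lies in exon 9 of 14, at chr4:129518889-129518915 on the minus strand, and in *Hdac2* in exon 9 at chr10:36997045-36997071 on the plus strand. The *Hdac7* stretch lies in exon 22 at chr15:97796146-97796172, the *Hdac5* stretch in exon 26 at chr11:102196587-102196613 and the *Hdac4* stretch in exon 24 at chr1:91945948-91945974, all on the minus strand. The *Hdac8* stretch, also on the minus strand, is split by an intron into chrX:102405537-102405543 and chrX:102402660-102402679. *Hdac1* and *Hdac2* were identical at 24 of 27 bases, as were *Hdac4* and *Hdac5*, whereas *Hdac1* shared 12 of 27 with *Hdac7* and 9 of 27 with *Hdac5*. *Hdac8* lay between, with 18 of 27 shared with *Hdac1* and 15 of 27 with *Hdac4* and with *Hdac5*.

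The authors calculated an FPKM value (fragments per kilobase of exon, scaled to the library's mapped fragments) for each gene and library. From the steps of 1 fragment in low values, the depth was estimated as 20.7 to 20.8 M fragments (M, mega) in the WT libraries and as 13.2, 20.7 and 17.4 M in cKO 1, 2 and 3. The FPKM total of a library was 521296 to 531517 in WT and 701396 to 850548 in cKO. *Nsrp1*, listed under its older symbol *Ccdc55*, had an FPKM of 20.2 to 21.1 in WT and of 15.0 to 17.7 in cKO (log2 fold change -0.34, limma adjusted p = 0.00675), so the targeted transcript was lower but still present. The log2 fold change of *Nsrp1* stayed at -0.34 but missed the threshold when the WT mean stood for 1 sample. That setting was used because squared differences between WT libraries were only 1.32 to 1.34 times those of counting noise. Between cKO libraries they were 5.19 to 12.0 times those of counting noise. *Xist* lay between 69.8 and 72.0 in WT and between 4.07 and 5.44 in cKO, and *Ddx3y*, a gene of the Y chromosome, was listed at 0 in WT and lay between 26.2 and 35.0 in cKO, so sex and genotype cannot be told apart. DP markers were abundant in every library, with *Cd8a* at 680 to 688 in WT and 1003 to 1163 in cKO and *Rag1* at 964 to 983 in WT and 1211 to 1671 in cKO.

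The family split by gene in NSrp70-cKO thymocytes. *Hdac1* and *Hdac2*, the catalytic subunits shared by several nuclear repressor complexes, rose by 1.51 and 1.62 times, although the call of *Hdac1* was lost under quantile normalization and the calls of both were lost when all libraries were scaled to the same FPKM total. All 3 class IIa genes fell, *Hdac5* to 47.6%, *Hdac7* to 52.5% and *Hdac4* to 60.3% of the WT mean, although adjustment for GC content and length ended the call of *Hdac4* and reduced the log2 fold changes of *Hdac5* and *Hdac7* from -0.97 and -0.93 to -0.29 and -0.26. *Hdac3*, *Hdac8*, *Hdac6* and *Hdac11* were also called lower, the call of *Hdac6* being lost under the same adjustment, whereas *Hdac10* did not pass the test. Thus limma called 2 of the 10 genes higher and 7 lower at an adjusted p under 0.05, beside 35.8% and 29.8% of all 10326 tested genes. In the same 2 and 7 genes all 3 cKO values lay above or below all 3 WT values, as they did in 39.2% and 33.3% of all tested genes. The median log2 fold change of the 10 genes was -0.39, beside 0.04 over all tested genes. The other 9 genes were at an FPKM of 1 or more in every library, but *Hdac11* passed the filter only through the WT libraries, where it is high, so it had to differ and its place among the 7 is no result. Fold changes are given as differences of log2(FPKM + 1), so those of weakly expressed genes are understated.

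FPKM values are per length, so levels can be ordered between genes, except that the place of *Hdac1* is uncertain because part of its sequence is shared with other genes, for which values are given with its own results. In WT the order was *Hdac7*, *Hdac1*, *Hdac2*, *Hdac3*, *Hdac10*, *Hdac8*, *Hdac5*, *Hdac6*, *Hdac4* and *Hdac11*, with means from 240 down to 1.50, and only the neighbours *Hdac10* and *Hdac8* overlapped in their 3 values. In cKO *Hdac7* moved from the first place to the third, below *Hdac1* and *Hdac2*, and the order of the other genes was kept, again with overlap between *Hdac10* and *Hdac8* only.

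**Figure D1:**
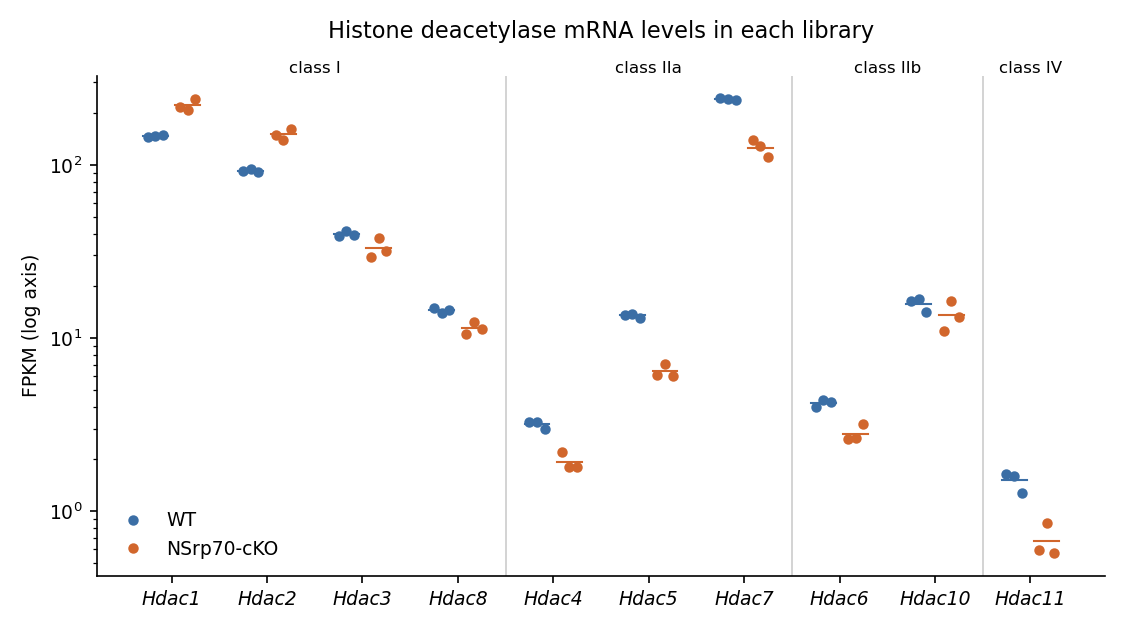
FPKM of each histone deacetylase gene (log axis) in the 3 WT and the 3 NSrp70-cKO libraries, with 1 point per library and a bar at the group mean, ordered by class. The cKO points of *Hdac1* and *Hdac2* lie above the WT points, those of *Hdac10* overlap them, and those of the other 7 genes lie below.

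Among class I genes, *Hdac1* had an FPKM of 146, 147 and 149 in WT 1, 2 and 3 and of 218, 208 and 241 in cKO 1, 2 and 3. Every cKO library was higher than every WT library, and the WT values spread much less than the cKO values. The log2 fold change was 0.58 (SE 0.0813, limma adjusted p = 0.000884). *Hdac2*, the closest paralog of *Hdac1*, had 92.4, 94.3 and 91.6 in WT and 150, 139 and 162 in cKO. The groups did not overlap, and cKO 3 was the highest library for both genes. Its log2 fold change was 0.69 (SE 0.0788, limma adjusted p = 0.000448).

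The other class I genes went the opposite way. *Hdac3*, the catalytic subunit of the NCoR corepressor, had 39.0, 41.5 and 39.6 in WT and 29.5, 38.1 and 31.8 in cKO. The value of cKO 2 came close to the lowest WT value without reaching it. The log2 fold change was -0.28 (SE 0.0955, limma adjusted p = 0.0373), the call was lost in all fits that left out 1 library except the one without cKO 2, and the adjusted p in those fits ran from 0.0011 to 0.122. *Hdac8*, which deacetylates the cohesin subunit SMC3, had 14.9, 14.0 and 14.4 in WT and 10.5, 12.4 and 11.3 in cKO. All cKO values were lower, again with cKO 2 nearest to WT, and the log2 fold change was -0.32 (SE 0.0745, limma adjusted p = 0.00763). *Hdac8* and *Hdac6* are on chromosome X, on which the libraries also differed by sex markers as given above, and the part of this in their values was not tested.

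The *Hdac1* values carry a limit of their own. Of the 1939 windows of 100 bases, about the length of a read, in the *Hdac1* transcript, 907 (46.8%) also occur without a mismatch in annotated transcripts of 3 other genes, *AC125456.1*, *Gm10093* and *Gm4864*, none of which has a row in the files. How the authors' mapping divided such reads is not given in the sources used here, so the level of *Hdac1* is uncertain. None of the windows of the other 9 genes occurred in another gene's transcript. The study also lists HDAC1 beside SRSF1 in a figure of quantitative PCR and western blots of DP thymocytes of both genotypes. Its text states no outcome of these assays for HDAC1. From immunoprecipitation in transfected HEK293T cells, the study reported that NSrp70 bound SRSF1 but not HDAC1. The study's *Hdac1* primers are shown here because they meet the same copies.
Forward primer: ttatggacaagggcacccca
Reverse primer: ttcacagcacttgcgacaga

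The forward primer matched exon 2 at chr4:129534688-129534707, the reverse primer matched the junction of exons 4 and 5, and the product was 300 bases long. Both primer sites were also found in the transcripts of the 3 copies named above.

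Class IIa genes fell together. *Hdac7*, listed with the highest FPKM of the family in WT, had an FPKM of 242, 240 and 238 in WT and of 139, 129 and 111 in cKO. The groups did not overlap, and cKO 3 was the lowest library. The log2 fold change was -0.93 (SE 0.0959, limma adjusted p = 0.000313). *Hdac5*, another MEF2-binding corepressor, had 13.6, 13.8 and 13.1 in WT and 6.15, 7.12 and 6.04 in cKO. Its groups were far apart and its log2 fold change was -0.97 (SE 0.0761, limma adjusted p = 0.000146). *Hdac5* and *Hdac7* were called lower under all 16 alternative settings, which include counting the WT libraries as 1 sample (limma adjusted p = 0.0311 and 0.0403), where no other deacetylase gene was called. *Hdac4* was expressed at a low level, with 3.28, 3.29 and 3.00 in WT and 2.18, 1.79 and 1.80 in cKO. The groups did not overlap and the log2 fold change was -0.52 (SE 0.0897, limma adjusted p = 0.0021). In *Hdac4*, 22.4% of the exon bases overlap *Gm26720* on the opposite strand, and the authors' strand setting is not given in the sources used here, so reads of the pair may not be separated.

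Of the class IIb genes, *Hdac6*, a mainly cytoplasmic enzyme that deacetylates tubulin, had 3.99, 4.40 and 4.24 in WT and 2.60, 2.63 and 3.17 in cKO. All cKO values were lower, and the log2 fold change was -0.46 (SE 0.0886, limma adjusted p = 0.00343). *Hdac10*, a polyamine deacetylase, had 16.4, 16.7 and 14.1 in WT and 11.0, 16.4 and 13.3 in cKO. The groups overlapped, since cKO 2 reached the WT range and cKO 3 lay just under its lowest value. The log2 fold change was -0.22, with a 95% interval from -0.54 to 0.11 (limma adjusted p = 0.204), which includes falls as large as those of *Hdac3* and *Hdac8*. Without cKO 2 the adjusted p of *Hdac10* was 0.0241.

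*Hdac11*, the only class IV gene and a fatty-acyl hydrolase, was the lowest of the family. It had 1.64, 1.60 and 1.28 in WT and 0.593, 0.859 and 0.573 in cKO. The groups did not overlap, but these levels stand for an estimated 65 to 84 fragments in WT and 19 to 44 in cKO, so counting error is larger here than for any other member. The log2 fold change was -0.58, given without its p because *Hdac11* entered the fit only through the WT libraries, and 15.4% of its exon bases overlap *Gm44002* on the opposite strand.

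The composition of the family's summed level differed between the groups more than the sum itself. The summed FPKM of the 10 genes was 573, 577 and 568 in WT and 569, 554 and 582 in cKO. The groups overlapped in this sum, with cKO values on both sides of the WT values. As a share of the FPKM total of its library, however, the sum was 0.108 to 0.111% in WT and 0.0684 to 0.0790% in cKO, without overlap, since the totals were larger in cKO. Class I genes made up 50.9 to 51.9% of it in WT and 71.6 to 76.7% in cKO, and class IIa genes 44.6 to 45.2% in WT and 20.4 to 25.9% in cKO. *Hdac7* alone went from 41.6 to 42.3% of the sum in WT to 19.0 to 24.4% in cKO, whereas *Hdac1* went from 25.4 to 26.3% to 37.4 to 41.4%. *Hdac2* accounted for 16.1 to 16.3% in WT and 25.1 to 27.9% in cKO.

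**Figure D2:**
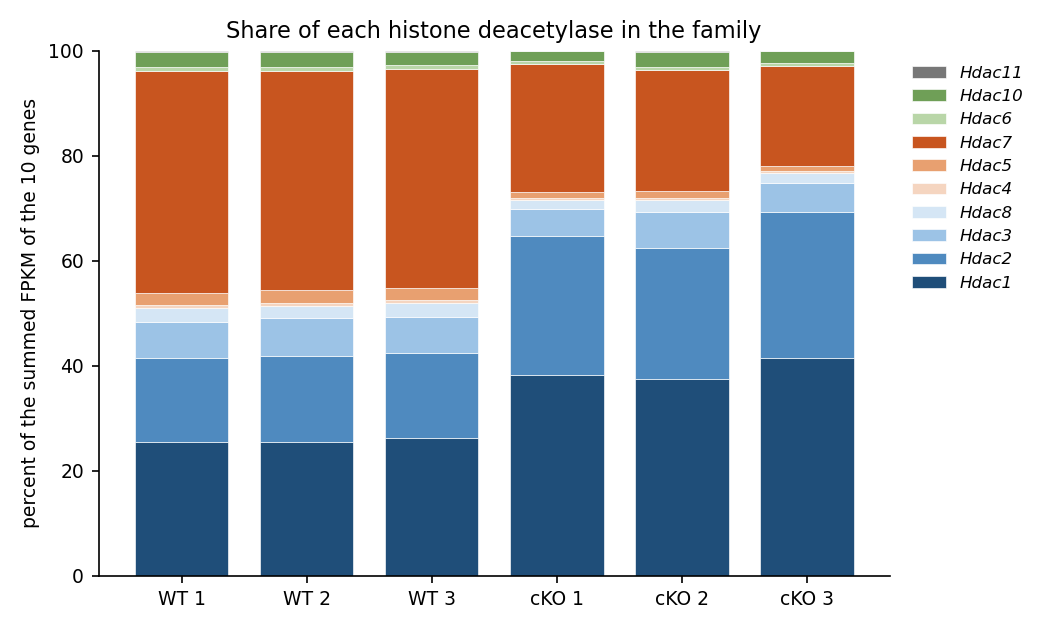
Share of each gene in the summed FPKM of the 10 histone deacetylase genes (percent, stacked to 100), with 1 bar per library. The class IIa segments (orange) make up 44.6 to 45.2% in the WT bars and 20.4 to 25.9% in the cKO bars.

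Ratios of genes within a library do not depend on how libraries are scaled to each other by a common factor. The ratio of *Hdac7* to *Hdac1* was 1.66, 1.63 and 1.59 in WT and 0.637, 0.620 and 0.459 in cKO. Thus the listed FPKM of *Hdac7* exceeded that of *Hdac1* in every WT library and lay below it in every cKO library. Adjustment for GC content and length does act on such ratios. It moved the log2 fold change of *Hdac7* from -0.93 to -0.26 and that of *Hdac1* from 0.58 to 0.52. The ratio of *Hdac3* to *Hdac1* was 0.266 to 0.282 in WT and 0.132 to 0.184 in cKO, also without overlap. Between *Hdac1* and *Hdac2* the ratio moved little, from 1.56 to 1.63 in WT to 1.45 to 1.49 in cKO. The ratio of *Hdac7* to *Hdac5* was 17.4 to 18.1 in WT and 18.1 to 22.5 in cKO, with overlap. These ratios are given as a description without a test.

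The size of each change depended on the treatment of the values. Scaling every library to the same FPKM total moved the median change over all tested genes from 0.04 to -0.45. Relative to zero, *Hdac1* then had 0.03 (limma adjusted p = 0.743), *Hdac2* 0.13 (limma adjusted p = 0.11) and *Hdac7* -1.49, so the genes kept their order. Under quantile normalization *Hdac1* had 0.09 (limma adjusted p = 0.13), whereas *Hdac2* was still called higher with 0.31 and *Hdac7* had -1.35.

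GC content followed the direction of change in the family only in part. The representative transcripts of *Hdac2* and *Hdac1* have a GC content of 44.4 and 50.0%, whereas those of *Hdac7* and *Hdac5* have 59.3 and 61.0%, the highest of the 10 genes. The lowest values, 44.4% of *Hdac2* and 48.7% of *Hdac8*, belong to a gene that rose and a gene that fell. *Hdac3*, which fell, has 50.2%, beside the 50.0% of *Hdac1*, which rose. After each library was adjusted for GC content and transcript length, *Hdac1* and *Hdac2* had a log2 fold change of 0.52 each and were still called higher. *Hdac7* and *Hdac5* shrank to -0.26 and -0.29 but were still called lower (limma adjusted p = 0.0143 and 0.0241). The calls of *Hdac4* (-0.10) and *Hdac6* (-0.09) were lost, *Hdac8* had -0.43 and *Hdac3* had -0.34, both still called, and *Hdac10* changed sign to 0.15 without passing the test. With this adjustment the class IIa genes lost most of their log2 fold change. For these genes it used the median GC content and length over the coding transcripts of a gene, not the representative transcript. The part of GC content in the changes was not tested.

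**Figure D3:**
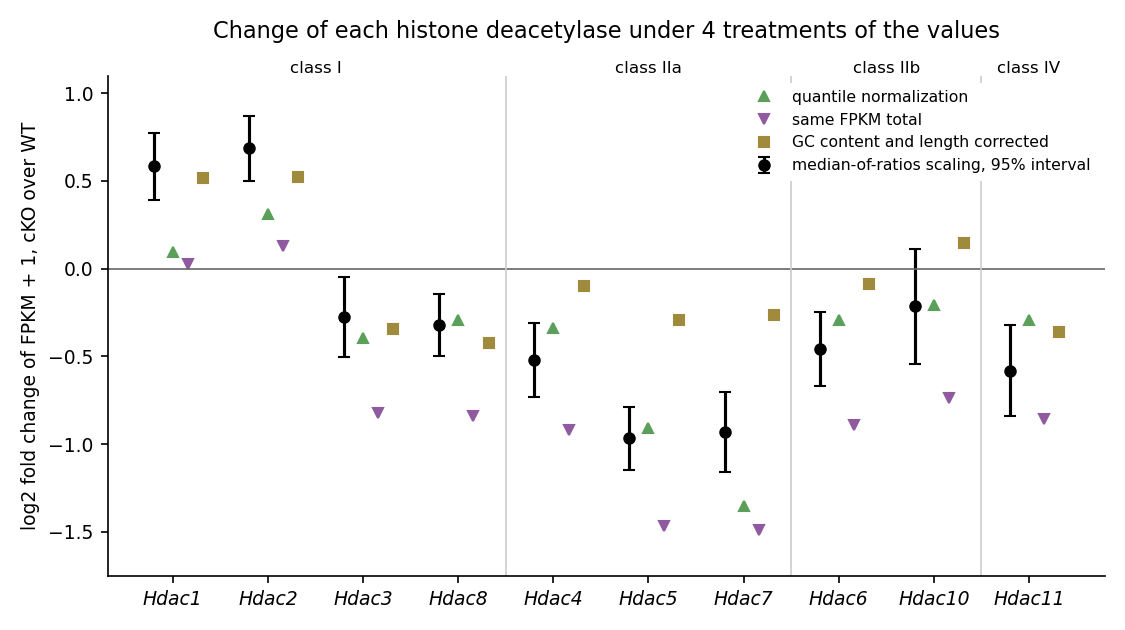
Log2 fold change of FPKM + 1 (cKO over WT) of each histone deacetylase gene by class, with the 95% limma interval for median-of-ratios scaling (black) and the value under quantile normalization, scaling to the same FPKM total, and adjustment for GC content and length. *Hdac5* and *Hdac7* lie below 0 under all 4, whereas *Hdac10* lies on both sides of 0.

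HDAC1 and HDAC2 act inside the SIN3, NuRD, CoREST and MiDAC complexes, and HDAC3 acts inside NCoR. Of 43 listed partner genes of these complexes, all of which were tested, limma called 8 higher and 21 lower, or 18.6% and 48.8% beside 35.8% and 29.8% of all tested genes, with a median log2 fold change of -0.12. In the SIN3 complex 5 of 15 partners (33.3%) were called higher, near the share over all tested genes, and 3 (20.0%) lower, with a median of 0.10. Its scaffold *Sin3a* had an FPKM of 29.0 to 29.9 in WT and 30.5 to 33.8 in cKO, a log2 fold change of 0.13 that did not pass the test (limma adjusted p = 0.101) and that became -0.41 with the same FPKM total. The second scaffold *Sin3b* lay at 245 to 261 in WT and 291 to 366 in cKO, called higher with 0.35 (limma adjusted p = 0.0211), but it was called lower with -0.16 under quantile normalization and with -0.21 at the same FPKM total. *Brms1*, which encodes a SIN3 subunit, rose by 0.78 on the log2 scale, a call that was lost at the same FPKM total (0.24), and *Phf12*, a PHD finger partner, had a log2 fold change of -1.17. The histone chaperones *Rbbp4* and *Rbbp7*, which HDAC1 and HDAC2 use in several complexes, were called higher with 0.35 and 0.83 (limma adjusted p = 0.0136 and 0.000321), although *Rbbp4* had -0.026 under quantile normalization and was called lower with -0.21 at the same FPKM total.

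The partners in the other complexes of HDAC1 and HDAC2 were mostly lower. In NuRD, which joins deacetylation to chromatin remodelling, none of 9 partners was called higher by limma and 7 (77.8%) were called lower, beside 35.8% and 29.8% of all tested genes, with a median of -0.49. The remodelling ATPases *Chd4* (118 to 119 in WT, 64.4 to 76.3 in cKO) and *Chd3* had log2 fold changes of -0.72 and -1.18, and the subunit *Mta1* had -1.09. After adjustment for GC content and length *Chd3* and *Mta1* shrank to -0.75 and -0.60, both still called lower. *Mta2*, the most abundant of the named NuRD genes, lay at 134 to 138 in WT and 130 to 142 in cKO, with a change of -0.01 that was called lower under quantile normalization and the same FPKM total and called higher, with 0.18, after adjustment for GC content and length. CoREST gave the same counts and shares as NuRD, with none of 9 partners called higher and 7 (77.8%) lower, and again a median of -0.49. The scaffold *Rcor1* lay at 20.6 to 21.6 in WT and 9.72 to 10.6 in cKO (log2 fold change -0.97, limma adjusted p = 0.000106), *Hmg20b* had -1.16, and the histone demethylase *Kdm1a* had -0.52. After the same adjustment *Rcor1* and *Hmg20b* had -0.85 and -0.79, both still called lower. All 3 MiDAC partners were called lower by limma, beside 29.8% of all tested genes. The scaffold *Elmsan1* had -1.29 and *Trerf1* -0.95, whereas the remaining partner had only -0.25 (limma adjusted p = 0.0376). *Elmsan1* and *Trerf1* shrank to -0.79 and -0.48 after adjustment for GC content and length and were still called lower.

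Among the NCoR partners, *Ncor1*, a scaffold that binds HDAC3, lay at 57.7 to 58.0 in WT and 56.6 to 70.2 in cKO, a change of 0.10 that did not pass the test and that had the opposite sign under quantile normalization (-0.13) and at the same FPKM total (-0.46). *Tbl1xr1* was called higher with 0.25, but it had -0.30 at the same FPKM total and -0.0067 after adjustment for GC content and length.

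**Figure D4:**
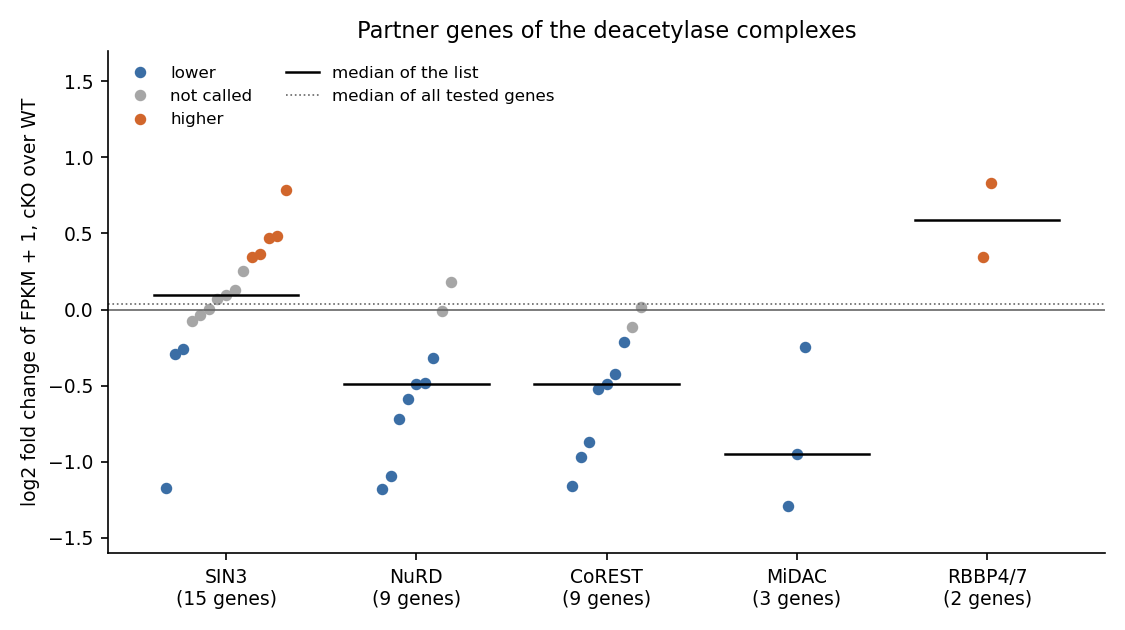
Log2 fold change of FPKM + 1 (cKO over WT) of the SIN3, NuRD, CoREST and MiDAC partner genes and of *Rbbp4* and *Rbbp7*, with 1 point per gene coloured by the limma call, a black bar at the median of each list and a dotted line at the median of all tested genes. The points of NuRD and CoREST lie mostly below 0 with medians of -0.49, whereas those of SIN3 lie on both sides.

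Class IIa enzymes bind MEF2 factors in the nucleus and 14-3-3 proteins in the cytoplasm. Of 11 such genes 10 were tested, of which 3 (30.0%) were called higher and 4 (40%) lower, near the 35.8% and 29.8% of all tested genes, with a median of 0.18. *Mef2d*, which encodes a MEF2 factor bound by HDAC7, lay at 63.0 to 65.2 in WT and 21.0 to 29.1 in cKO (log2 fold change -1.34, limma adjusted p = 0.000183). Its change shrank to -0.80 after adjustment for GC content and length, still called lower. *Mef2b* lay at 1.98 to 2.12 in WT and 0.754 to 1.36 in cKO. Its log2 fold change was -0.61, and -0.31 without a call after the same adjustment. It passed the filter only through the WT libraries, where it is high, so its place among the 4 lower genes is no result. The 14-3-3 proteins hold phosphorylated class IIa enzymes in the cytoplasm, and their genes diverged, with *Ywhah* at 0.70 (0.15 and not called at the same FPKM total) and *Sfn* at -0.83. Of 15 genes for kinases and phosphatases that act on class IIa enzymes 13 were tested, of which 3 (23.1%) were called higher and 9 (69.2%) lower, beside the same 35.8% and 29.8%, with a median of -0.46. *Sik1* had 48.9, 47.7 and 49.1 in WT and 11.2, 21.7 and 9.49 in cKO, so cKO 2 was the highest cKO library, and its log2 fold change was -1.80 (limma adjusted p = 0.001). *Sik3*, *Mark2* and *Prkd2*, which encodes protein kinase D2, had -1.03, -0.88 and -0.72, and the call of *Prkd2* was lost after adjustment for GC content and length (-0.17, limma adjusted p = 0.051).

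Genes for enzymes that add acetyl groups and for proteins that read acetyl lysine changed in both directions. Of 10 acetyltransferase genes, 3 (30.0%) were called higher and 6 (60%) lower, beside 35.8% and 29.8% of all tested genes, with a median of -0.42. The coactivator *Crebbp* lay at 25.3 to 26.0 in WT and 10.7 to 15.4 in cKO, a log2 fold change of -0.99. *Kat2a* had -0.63, a call lost after adjustment for GC content and length (-0.10). *Hat1*, which acetylates newly made histones, lay at 46.8 to 48.2 in WT and 78.0 to 99.7 in cKO and rose by 0.89 on the log2 scale (limma adjusted p = 0.00035). The 7 sirtuins, deacetylases that use NAD and are not related to the HDAC family, had a median of -0.01, and 2 (28.6%, near the share over all tested genes) were called lower and none higher by limma, namely *Sirt4* (-0.83) and *Sirt6* (-0.49). The call of *Sirt6* was lost in some fits without 1 library and after adjustment for GC content and length (-0.11). Of 7 bromodomain genes, 2 (28.6%) were called higher and 4 (57.1%) lower, beside the same 35.8% and 29.8%, with a median of -0.40. *Brd1* lay at 38.3 to 40.1 in WT and 19.9 to 23.0 in cKO (log2 fold change -0.86, limma adjusted p = 0.000158).

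The genes with the pattern most like a deacetylase gene were found by the mean absolute difference of log2(FPKM + 1), centred on the WT mean, over the 6 libraries. For *Hdac2* these were *Capza1* (0.0144), *Ifit2* (0.0173) and *Ik* (0.0179). For *Hdac5* they were *Cdk9* (0.0123), *Kremen1* (0.0176) and *Eif2ak3* (0.0226).

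Markers of other cell states moved with the genotype beside these results. All 16 proliferation markers were called higher, beside 35.8% of all tested genes, with a median log2 fold change of 1.09. Their summed FPKM was 1388 to 1393 in WT and 2697 to 3138 in cKO. Of 9 markers of mature single positive thymocytes, 8 were called lower and 1 higher, beside 29.8% and 35.8% of all tested genes, with a median of -1.68, and their summed FPKM was 172 to 174 in WT and 137 to 152 in cKO. *S1pr1* and *Zbtb7b* of this list were under an FPKM of 1 in every cKO library and passed the filter only through WT, so their calls were fixed by it. *S1pr1* and *Ccr7* lay at 4.11 to 4.79 and 15.1 to 16.2 in WT and at 0.133 to 0.203 and 1.16 to 2.50 in cKO. The summed FPKM of 6 erythroid genes was 2.01 to 2.80 in WT and 12.5 to 27.0 in cKO. Of 6 B cell genes, 5 were under an FPKM of 1 in every library, and the summed FPKM of 23.1 to 24.5 in WT and 27.1 to 39.7 in cKO came mostly from *Cd79b*. Of 8 stromal genes, 3 were listed at 0 in every library, and the sum of 47.4 to 49.0 in WT and 53.4 to 57.4 in cKO came mostly from *Pecam1*, which marks endothelium. The 4 markers of double negative thymocytes summed to 34.0 to 34.4 in WT and 27.2 to 38.3 in cKO, and 8 myeloid genes summed to 6.99 to 9.32 in WT and 7.04 to 8.12 in cKO. The part of these differences in the deacetylase values was not tested, and in bulk samples fewer cells of a type and less RNA per cell cannot be told apart.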

How the data were processed

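Sorted DP thymocyte RNA was made into poly(A)-enriched directional libraries by the authors, sequenced as paired-end reads, mapped to mm10 with TopHat and quantified with Cufflinks. The deposited FPKM values, 1 per gene symbol and library, were used; tool versions, gene annotation and strand setting are not given in the sources used here. Because FPKM values are not counts, the count test of the methods was not repeated. Libraries were divided by median-of-ratios size factors (1.00 to 1.01), and genes reaching an FPKM of 1 in at least 3 libraries were kept. Their log2(FPKM + 1) values were compared between genotypes in R 4.3.3 with limma 3.58.1 (eBayes with a trend), with Benjamini-Hochberg adjustment over all 10326 genes. The fit was tested on simulated data. Depth was estimated with an assumed fragment length of 200. The spread of a pair of libraries was set against counting noise in 632 genes with 1 annotated transcript and 10 or more estimated fragments. It was the median squared difference over its counting variance, divided by the expected median of that chi-square statistic. Sequences, positions and GC content came from GENCODE M21, read with Python 3.11.15. All 10 deacetylase genes are named, and of the other lists the genes with the largest change among those called without overlap between groups, plus complex scaffolds. A few genes that this choice would name are not reported here. The members and lists were chosen with earlier results of these data known. The 16 alternatives changed the pseudocount, filter, scaling, trend, weights, GC and length correction (splines with 5 degrees of freedom), replicate block, or left out 1 library.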

Additional observations from a re-analysis of the deposited data

How the results depend on the processing

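Counting the WT libraries as 1 sample left 0 deacetylase genes called higher and 2 lower by limma, 1 and 9 complex partners, and 744 and 901 of all tested genes, beside 3693 and 3073 in the fit as reported; the *Nsrp1* change of -0.34 then missed the threshold. At the same FPKM total the counts were 0 deacetylase genes higher and 8 lower, 1 and 37 partners, and 903 and 6182 of all genes. Quantile normalization gave 1 deacetylase gene called higher and 7 lower, and 5 and 24 partners. Adjustment for GC content and length gave 2 deacetylase genes called higher and 5 lower, 8 and 16 partners, and 3318 and 2779 of all genes. Changes of sign were seen at the same FPKM total for *Tbl1xr1* (-0.30), *Sin3a* (-0.41), *Sin3b* (-0.21), *Ncor1* (-0.46) and *Rbbp4* (-0.21), under quantile normalization for *Sin3b* (-0.16), *Ncor1* (-0.13) and *Rbbp4* (-0.026), after adjustment for GC content and length for *Hdac10* (0.15), *Tbl1xr1* (-0.0067) and *Mta2* (0.18), and without cKO replicate 2 for *Mta2* (0.030, with -0.049 as its lowest value without 1 library). The cause was not tested. Leaving out 1 library gave 2 deacetylase genes higher and 6 to 8 lower, 6 to 10 partners higher and 16 to 21 lower, 3083 to 4132 of all genes higher and 2503 to 3522 lower, and -0.40 to -0.29 for *Nsrp1*. Same-numbered WT and cKO libraries did not deviate together (correlations -0.02, 0.04 and 0.03). Squared differences between WT libraries were only 1.32 to 1.34 times those of counting noise, so this check could hardly show a pairing. Whether the numbers pair the samples is not known. With the replicate number as a block, 2 deacetylase genes were called higher and 7 lower, 8 and 19 partners, and 3513 and 2954 of all genes. Depth limits *Hdac11* most, with an estimated 19 fragments in cKO 1.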
